A study of Mus musculus with 5 samples.

Results

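Of the 76772 H3K4me1 peaks mapped in mouse epiblast stem cells, 388 lay away from H3K4me3 and carried H3K27me3 without H3K27ac. These distal elements were selected on the peak lists themselves: an H3K4me1 peak on chromosomes 1 to 19, no H3K4me3 peak within 1 kb of its edges, at least 1 bp under an H3K27me3 peak and none under an H3K27ac peak. The rule kept 388 of 50970 autosomal distal elements, or 0.761%. This share restates the rule and supports nothing by itself. The other distal elements were 9466 with H3K27ac only, 41098 with neither mark and 18 with both.

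The study mapped 4 histone marks by chromatin immunoprecipitation and sequencing in EpiSC9, a mouse epiblast stem cell line for which the labels give no genotype, strain or age. The cells were cultured in knockout serum replacement medium with FGF2 at 10 ng/ml on a feeder layer of irradiated mouse embryonic fibroblasts, and the labels do not say whether feeder cells were removed before crosslinking. Each antibody had 1 library from 5000000 crosslinked cells and no replicate, and an input library was not used here. All values below describe these 4 peak lists: intervals in brackets are 95% Wilson intervals for shares, and they cover counting over elements only, not the spread between cultures.

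Epiblast stem cells represent the primed state of pluripotency, taken from the epiblast after implantation. In such cells H3K4me1 is laid down at enhancers, and H3K27ac accompanies it where an enhancer is active. Enhancers that hold H3K27me3, the product of Polycomb repressive complex 2, in place of H3K27ac are often called poised and are known from pluripotent cells beside developmental genes, whose promoters frequently carry H3K4me3 and H3K27me3 together (bivalent promoters). The peak positions are on mm9 and no annotation of that build was used, so regions are given by position, without gene names or sequence, and the cell type was not checked against marker genes.

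The elements were of intermediate size and strength among distal H3K4me1 peaks. Their median H3K4me1 width was 1662 bp (quartiles 1213 and 2383, range 729 to 7273). Elements with H3K27ac only were wider, with a median of 2090 bp, and those with neither mark narrower, with a median of 1379 bp. The score is the authors' own value for each peak and is compared here only within one list. The H3K4me1 score had a median of 132 (quartiles 82.9 and 245), against 212 with H3K27ac only and 99.2 with neither mark. A score at or above the autosomal median of the H3K4me1 list was found in 198 of the 388 elements (51.0%, 46.1 to 56.0), compared with 42.4% of all autosomal distal elements, 70.8% of those with H3K27ac only and 35.8% of those with neither mark.

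Width bears on membership, since a wider peak meets more peaks of any kind. The share of distal elements in the class was 0.508% (0.388 to 0.665) among the narrowest 20% of elements, of 505 to 1066 bp, and 1.08% (0.897 to 1.30) among the widest 20%, above 2248 bp. Per megabase of H3K4me1 sequence the order was the other way round, with 5.34 members per Mb among the narrowest and 3.24 among the widest. By H3K4me1 score the share went from 0.510% among the weakest 20% to 1.01% among the strongest, and per megabase from 4.88 members to 3.16.

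H3K27me3 generally occupied only part of an element. The median element had 382 bp, or 24.3% of its width (quartiles 12.7 and 59.6), under H3K27me3. This median depended on the lists: it was 65.0% with H3K27me3 peaks from their median score upward, and 51.9% with H3K4me3 peaks so limited. It covered 50% or more of the width in 109 elements (28.1%) and the whole width in 41 (10.6%), while 32 elements had under 100 bp covered. A single H3K27me3 peak lay on 306 elements, 2 peaks on 61 and 3 to 5 peaks on 21. In the 498 pairings of an element with a peak, the H3K27me3 peak lay wholly inside the element in 235, crossed one edge in 222 and spanned the element in 41. The 489 H3K27me3 peaks involved made up 4.28% of the 11419 autosomal peaks of that mark, and their median score of 70.7 lay between that of H3K27me3 peaks on no other mark (61.9) and that of H3K27me3 peaks on H3K4me3 (158).

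H3K4me3 was close to most of the elements, beyond the 1 kb that the rule kept clear. The median gap from edge to edge was 3.80 kb (quartiles 1.86 and 14.1), and 221 elements (57.0%, 52.0 to 61.8) had H3K4me3 within 5 kb. The same held for 13.1% (12.4 to 13.8) of distal elements with H3K27ac only and 13.3% (13.0 to 13.7) of those with neither mark, whose median gaps were 24.9 and 25.4 kb. The rule required an H3K27me3 peak, and 5500 of the 11419 autosomal H3K27me3 peaks (48.2%) touched H3K4me3. Selection on H3K27me3 can thus itself favour nearness to H3K4me3, and these contrasts carry no test. Another 38 elements (9.79%) were more than 50 kb from H3K4me3, beside 2717 of the 9466 with H3K27ac only and 12558 of the 41098 with neither mark. Raising the excluded distance to 5 kb leaves 167 elements, and using only the stronger part of the H3K4me3 list (scores from its median upward) gives 1501, since fewer H3K4me3 peaks then exclude an element.

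The H3K4me3 peak nearest to an element was itself marked by H3K27me3 in most cases. It overlapped H3K27me3 for 220 of the 388 elements (56.7%, 51.7 to 61.5), compared with 13.9% of all autosomal distal elements. It carried H3K27me3 alone, the bivalent state, for 215, H3K27ac alone for 64, both for 5 and neither for 104. For distal elements with H3K27ac only the order was different: 60.4% had a nearest H3K4me3 peak with H3K27ac alone and 7.32% one with H3K27me3 alone. Over all 27970 autosomal H3K4me3 peaks, 48.4% carried H3K27ac alone and 15.8% H3K27me3 alone. For 60 of the 220 elements, the H3K27me3 peak on the element itself touched H3K4me3. Over the 328 elements without such a shared peak, the nearest H3K4me3 peak carried H3K27me3 for 160 (48.8%, 43.4 to 54.2). Since the H3K27me3 list both chose the elements and set the state of the H3K4me3 peaks, and each mark had 1 library, these shares carry no test.

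**Figure D1:**
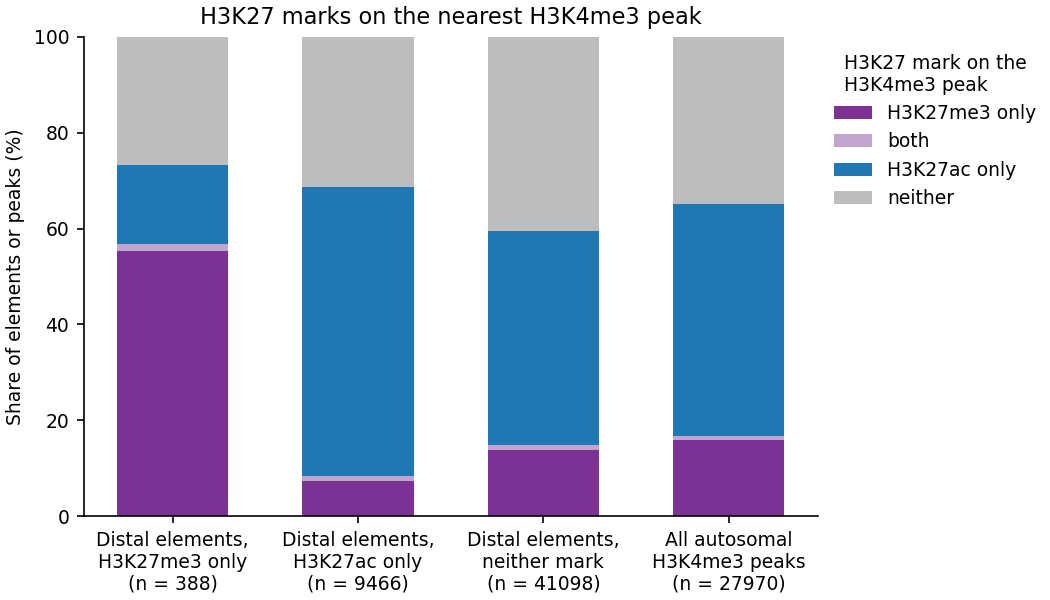
H3K27 marks on the H3K4me3 peak nearest to each distal element, as a stacked share (%) for the 3 main classes of autosomal distal element, with all autosomal H3K4me3 peaks at the right. H3K27me3 alone makes up 55.4% of the first column, 7.32% of the second, 13.8% of the third and 15.8% of the last.

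The shares also differed among elements at like distances from H3K4me3. Within 1 to 5 kb of H3K4me3, the nearest peak carried H3K27me3 for 170 of 221 elements (76.9%, 70.9 to 82.0), for 12.7% (11.9 to 13.6) of 5479 distal elements with neither mark and for 4.60% (3.57 to 5.92) of 1238 with H3K27ac only. From 5 to 50 kb the corresponding shares were 28.7% (21.6 to 37.0, 129 elements), 14.5% and 7.15%. Beyond 50 kb they were 34.2% (21.2 to 50.1, 38 elements), 16.3% and 12.4%. The 170 elements at 1 to 5 kb divide unevenly over the 3 kinds defined below. They were 60 of 60 that shared an H3K27me3 peak with H3K4me3 and 109 of 132 that shared only a domain. Of the 29 others, 1 was among them (3.45%, 0.611 to 17.2). At 5 to 50 kb the nearest peak carried H3K27me3 for 13 of 15 elements that shared a domain. For the others it did so in 24 of 114 (21.1%, 14.6 to 29.4). All 38 elements beyond 50 kb were of this last kind. The H3K27me3 list both chose the elements and set the state here too, so these shares carry no test.

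Read from the side of H3K4me3, elements of the class made up a large share of the distal H3K4me1 close to bivalent peaks. The same pair of marks was more frequent inside the 1 kb that the rule excluded. There, 3962 of 25392 autosomal H3K4me1 peaks carried H3K27me3 only, beside the 388 elements outside it. Of 243 distal elements within 1 to 2 kb of an H3K4me3 peak with H3K27me3 alone, 85 belonged to the class (35.0%, 29.3 to 41.2). The share was 13.7% (11.2 to 16.7) at 2 to 5 kb, 2.71% (1.76 to 4.14) at 5 to 10 kb and 0.583% (0.359 to 0.945) at 10 to 50 kb. Beside H3K4me3 peaks with H3K27ac alone it was 0.751% (0.364 to 1.54) at 1 to 2 kb and 0.242% (0.111 to 0.527) at 2 to 5 kb. Beside H3K4me3 with neither mark it was 2.60% and 1.08% at these distances. Beyond 200 kb only 8 elements remained, and the intervals of the 3 states overlapped. For elements with H3K27ac only the order ran the other way: where the nearest H3K4me3 peak was bivalent, their share of distal elements was 4.12% at 1 to 2 kb, 10.2% at 10 to 50 kb and 16.4% beyond 200 kb. The H3K27me3 list set both the class and the state of the H3K4me3 peaks. Near H3K4me3, 1 broad H3K27me3 peak can set both, so these contrasts carry no test.

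**Figure D2:**
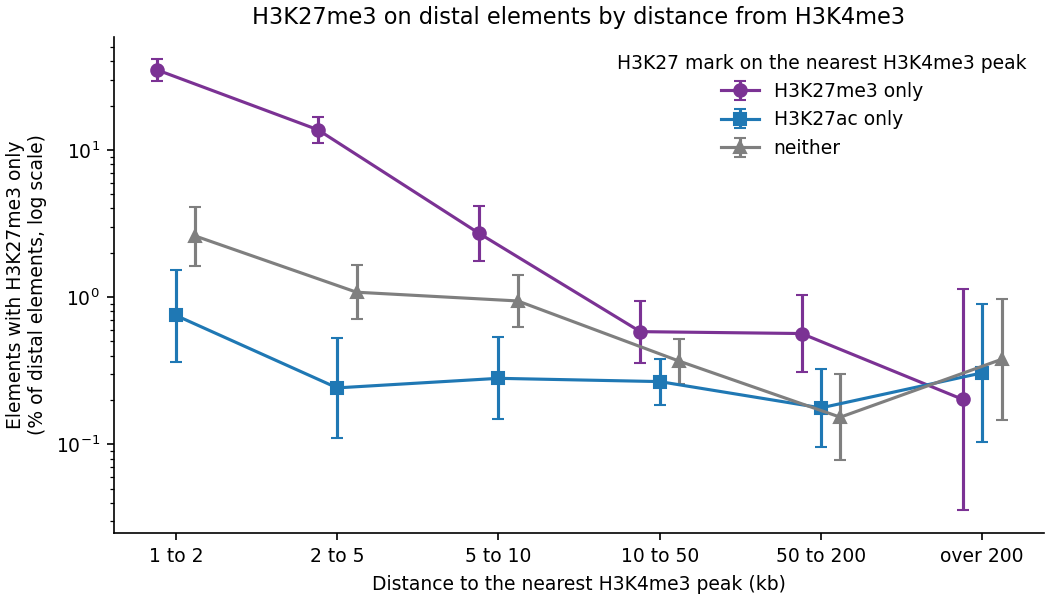
Share of autosomal distal H3K4me1 elements with H3K27me3 only (%, log scale) in 6 bins of distance to the nearest H3K4me3 peak (kb), drawn separately by the H3K27 mark on that H3K4me3 peak, with 95% Wilson intervals as bars. Beside H3K4me3 with H3K27me3 alone the points go from 35.0% at 1 to 2 kb to 0.583% at 10 to 50 kb, while beside acetylated H3K4me3 they stay under 1%. The H3K27me3 list set both the class and the state of the H3K4me3 peaks.

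H3K27ac, which the rule kept off the elements, was also sparse around them. The nearest H3K27ac peak was at a median of 36.8 kb (quartiles 14.4 and 71.8), against 21.0 kb for distal elements with neither mark, which the rule of their class likewise kept free of H3K27ac. H3K27ac lay within 5 kb of 39 elements (10.1%, 7.44 to 13.4) and of 18.9% (18.5 to 19.3) of elements with neither mark. Over all autosomal distal elements the share was 33.9%, which includes those that H3K27ac touched. The contrast was widest near H3K4me3: at 1 to 5 kb from it the median distance to H3K27ac was 39.4 kb for the 221 elements with H3K27me3 and 4.48 kb for the 5479 with neither mark. Farther than 5 kb the medians were 32.9 and 24.3 kb. The nearest H3K4me3 peak often carried H3K27ac itself. At 1 to 2 kb it carried H3K27ac alone for 932 of all 1855 distal elements and 7 of the 110 in the class. At 2 to 5 kb it did so for 2481 of 5087 and 6 of 111. How far H3K27ac on that peak sets the contrast was not tested. A single element had H3K27ac within 1 kb.

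The 388 elements fell into 3 kinds by their relation to H3K27me3 on H3K4me3, a split made after the values were seen. H3K27me3 peaks within 5 kb of each other were joined into domains, and a domain was said to hold H3K4me3 where an H3K4me3 peak lay on its span. In 60 elements (15.5%, 12.2 to 19.4) the H3K27me3 peak on the element was the very peak that also touched H3K4me3. In 147 further elements the peak did not touch H3K4me3 but its domain held H3K4me3, which brings the elements in such domains to 207 (53.4%, 48.4 to 58.3). The remaining 181 lay in domains without H3K4me3. The split by domain depends on the joining distance, and with joining within 1 kb 35.1% of the elements were in a domain with H3K4me3.

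The 60 elements that shared their H3K27me3 peak with H3K4me3 had the lowest H3K4me1 scores of the 3 kinds and lay under broad H3K27me3 peaks. A peak that reaches both the element and H3K4me3 must span the gap of over 1 kb between them, so some breadth follows from the definition. Their median H3K4me1 score was 84.3 and their median width 1298 bp, and 13 of 60 (21.7%) reached the median score of the H3K4me1 list. The strongest H3K27me3 peak on each was 5132 bp wide and scored 2245 by the medians. H3K27me3 covered a median of 100% of the element, and the median gap to H3K4me3 was 1.59 kb. Of these elements, 51 lay in domains with at least 10 kb under H3K27me3. The median distance to H3K27ac was 75.7 kb.

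The 147 elements that shared only the domain were stronger in H3K4me1, with a median score of 127 and a median width of 1666 bp. Their H3K27me3 peaks were small, with a median width of 494 bp and score of 79.2, and covered a median of 25.3% of the element. They lay 2.36 kb from H3K4me3 by the median, and 132 of them within 5 kb. The nearest H3K4me3 peak carried H3K27me3 for 122 (83.0%, 76.1 to 88.2), a share that the presence of H3K4me3 in the domain raises by construction. The centre of the bases under H3K27me3 lay on the side of the element toward H3K4me3 in 95 of 147 (64.6%, 56.6 to 71.9), on the far side in 42 and at the element's own centre in 10, which the definition of the kind can likewise favour. In the 181 elements without H3K4me3 in the domain the 2 sides held 95 and 86.

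The 181 elements without H3K4me3 in their domain had the strongest H3K4me1 and the weakest H3K27me3. The median H3K4me1 score was 166 and the median width 1839 bp, and 113 of 181 (62.4%, 55.2 to 69.2) reached the list median. Their strongest H3K27me3 peak was typically 354 bp wide and scored 59.3 (medians), where the lowest score in the list is 50. H3K27me3 covered a median of 18.6% of the element. A short domain leaves little span on which H3K4me3 can lie, so small H3K27me3 peaks can follow in part from the definition. A wide H3K4me1 peak also meets more peaks of any kind. The gap to H3K4me3 had a median of 15.4 kb (quartiles 7.18 and 38.1). The nearest H3K4me3 peak carried H3K27me3 for 38 (21.0%, 15.7 to 27.5), H3K27ac alone for 58 and neither mark for 85. The absence of H3K4me3 from the domain lowers the first of these counts by construction.

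**Figure D3:**
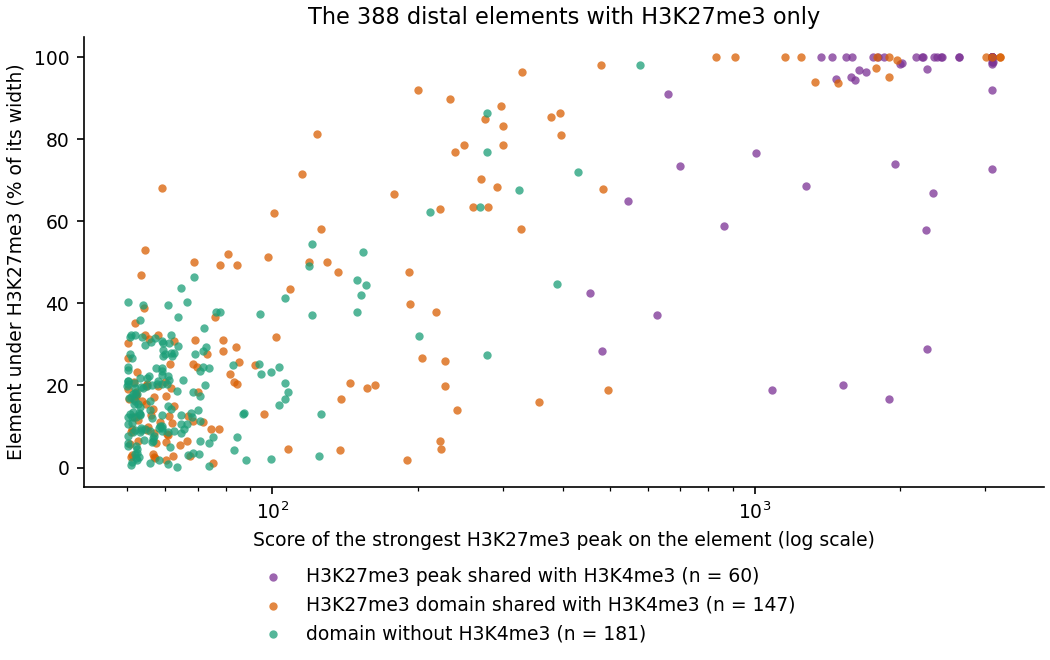
Each point is 1 of the 388 elements, by the score of its strongest H3K27me3 peak (log scale) and the share of its width under H3K27me3 (%), coloured by kind. The 60 elements that share an H3K27me3 peak with H3K4me3 sit mostly at the upper right, with a median score of 2245, and most of the 181 without H3K4me3 in the domain sit at the lower left, with a median score of 59.3.

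Within that last group, 122 elements rested on a lone H3K27me3 peak. By the medians over elements such a peak was 340 bp wide and scored 56.4, and it scored under 60 for 79 of the 122 elements (64.8%). By comparison, 27.5% of all autosomal H3K27me3 peaks and 44.4% of those on no other mark scored under 60. The lone peaks ranged in score from 50.1 to 126, with an upper quartile of 63.8, and whether they would recur in another library was not tested. Keeping only H3K27me3 peaks from the list's median score upward leaves 165 elements, of which 75.8% had a nearest H3K4me3 peak with H3K27me3 and 36.4% shared the H3K27me3 peak itself. The other 59 elements lay in domains of 2 or more H3K27me3 peaks, with a median H3K4me1 score of 209, a median H3K27me3 score of 72.8 and 27.7% of the element covered.

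Seen by domain, 121 of 1862 lone H3K27me3 peaks without H3K4me3 held an element of the class (6.50%, 5.47 to 7.71). Domains of 2 or more peaks without H3K4me3 were few, 128, and 50 of them held one (39.1%, 31.0 to 47.7). Among 212 domains with at least 10 kb under H3K27me3, 66 did (31.1%, 25.3 to 37.7), and of the 1750 smaller domains of 2 or more peaks with H3K4me3, 88 did (5.03%, 4.10 to 6.15). Longer domains meet more peaks of any kind, so these shares are not adjusted for size.

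Turning each element so that its nearest H3K4me3 peak lay to the right showed how the marks were arranged. Around the 60 peak-sharing elements, H3K27me3 peaks were present in 90% at 4 kb toward H3K4me3 and in 63.3% at 4 kb away from it. Around the 147 domain-sharing elements the values were 62.6% and 21.1%. In the first kind the H3K27me3 peak must reach an H3K4me3 peak, and in the second an H3K4me3 peak must lie on the domain's span. That H3K4me3 peak need not be the nearest one, which was turned to the right. Where it is, the higher value on that side is in part set by construction. In the 181 without H3K4me3 in the domain, H3K27me3 was found in 21.0% at the centre and in 4.42% and 3.31% at 4 kb on either side. H3K27ac peaks were present in at most 2.21% at 4 kb on either side in any of the 3 kinds. Around distal elements with H3K27ac only, at 4 kb toward H3K4me3, 9.88% had H3K27ac and 0.169% had H3K27me3. H3K4me1 was present at 4 kb toward H3K4me3 in 66.7% of the domain-sharing elements and at 4 kb away in 26.5%, and for the peak-sharing elements in 60% and 23.3%. The 181 others had 22.7% and 17.1%, beside 20.8% and 14.6% around distal elements with neither mark.

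**Figure D4:**
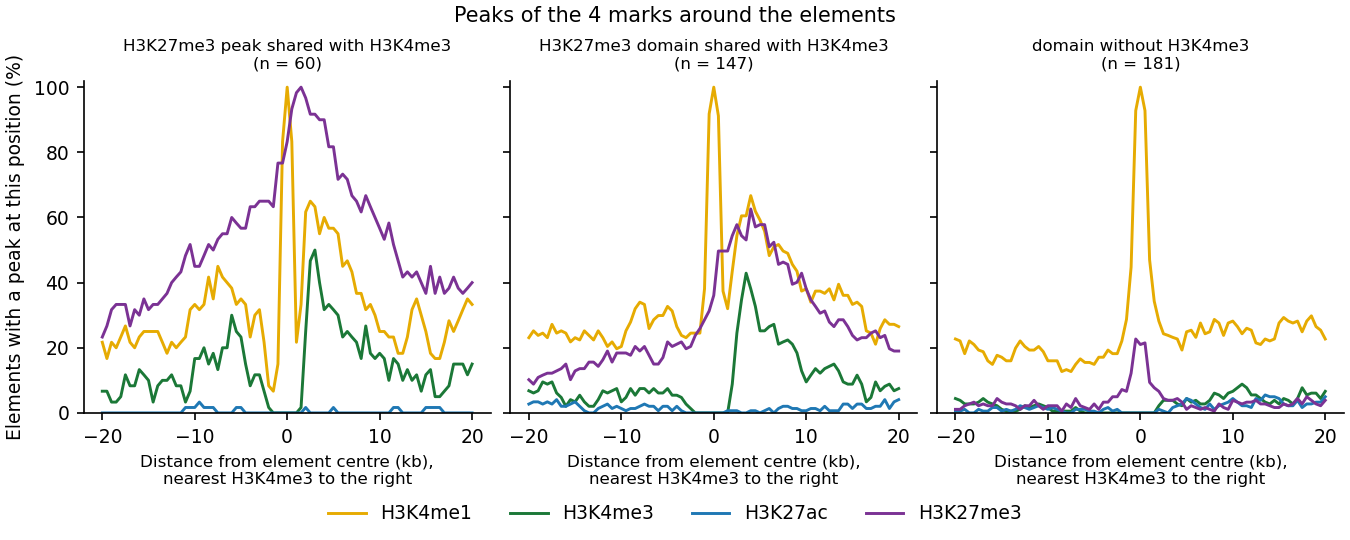
Share of elements (%) with a peak of each mark at positions from 20 kb left to 20 kb right of the element's centre, in steps of 500 bp, with the nearest H3K4me3 peak turned to the right, for the 3 kinds of element. The H3K27me3 curve is broad around the 60 peak-sharing elements, lies mainly to the right around the 147 domain-sharing elements (62.6% at 4 kb, against 21.1% at the same distance to the left) and is a narrow peak of 21.0% at the centre of the other 181.

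Individual regions show these layouts. The element with the most bases under H3K27me3 was on chromosome 6 at 83367523 to 83374400. It was 6878 bp wide with an H3K4me1 score of 974, and 5 H3K27me3 peaks covered 4953 bp of it, the strongest with a score of 429. Its domain of 9 peaks covered 9.25 kb and held no H3K4me3, the nearest of which was 15.8 kb away and acetylated. A second element of this layout, on chromosome 1 at 132980063 to 132984587, scored 503 and had 2375 bp under 5 H3K27me3 peaks, with an acetylated H3K4me3 peak 7.47 kb away. The other 3 with the most bases were peak-sharing elements: chromosome 6 at 83645567 to 83648594 (2938 bp) and at 83670555 to 83673158 (2576 bp), both in 1 domain of 31.4 kb covered length, and chromosome 7 at 138691348 to 138693901 (2526 bp). Among the 181 elements without H3K4me3 in the domain, 9 held 3 or more H3K27me3 peaks, a set singled out after its values were seen. Their H3K4me1 scores ran from 289 to 974 and their widths from 1770 to 6878 bp, and H3K27me3 covered 20.4% to 72.0% of them.

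The highest H3K4me1 score, 1250, belonged to chromosome 19 at 10368165 to 10372729. It lay inside a domain of 31 H3K27me3 peaks that together covered 21.4 kb, and 916 bp of its 4565 bp (20.1%) were under H3K27me3, in 3 peaks: one over each edge and one just left of the centre. The strongest of them scored 163. A bivalent H3K4me3 peak was 5.97 kb away. Next came chromosome 9 at 56427382 to 56434654 with a score of 1072, where 1 H3K27me3 peak of score 50.3 covered 5.13% of 7273 bp, and chromosome 9 at 57980543 to 57986135 with a score of 1020, covered to 12.7%. The fourth was the chromosome 6 element with the most bases under H3K27me3, and the fifth, on chromosome 4 at 136520378 to 136527087 (score 910), was covered to 6.42%. So 4 of the 5 elements with the highest H3K4me1 scores had at most 20.1% of their width under H3K27me3. The median over all 388 elements was 24.3%. These 5 were 4565 to 7273 bp wide, beside a median of 1662 bp, and a given H3K27me3 peak covers a smaller share of a wider element.

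The 5 elements picked for the strongest H3K27me3 off H3K4me3 had the opposite layout. A single H3K27me3 peak of 7035 bp and score 3218 on chromosome 14 spanned 2 elements, at 63880848 to 63882458 and at 63883041 to 63884225, whose H3K4me1 scores were 83.2 and 90.6. They were 4.53 and 2.76 kb from H3K4me3 and, sharing 1 peak, are not separate examples. The next 3, on chromosome 6 at 52193540 to 52194454, chromosome 15 at 102793516 to 102794776 and chromosome 4 at 88922114 to 88923332, had H3K27me3 scores of 3100, 3008 and 1972 and H3K4me1 scores of 50.4, 85.8 and 63.4. H3K27me3 covered 99.4% to 100% of all 5.

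The 5 elements farthest from H3K4me3, at 240 to 590 kb, each had 1 small H3K27me3 peak. The farthest was on chromosome 6 at 98385216 to 98386870, 590 kb from H3K4me3 and 146 kb from H3K27ac. Its H3K4me1 score was 233, and a 336 bp H3K27me3 peak of score 50.3 was the only H3K27me3 peak within 10 kb. The others were on chromosome 12 at 105226620 to 105227703, chromosome 11 at 7431293 to 7432810, chromosome 2 at 158893810 to 158895895 and chromosome 3 at 52578731 to 52579771. Their H3K27me3 scores were 52.0, 59.2, 82.9 and 50.3, all below the autosomal list median of 83.6.

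**Figure D5:**
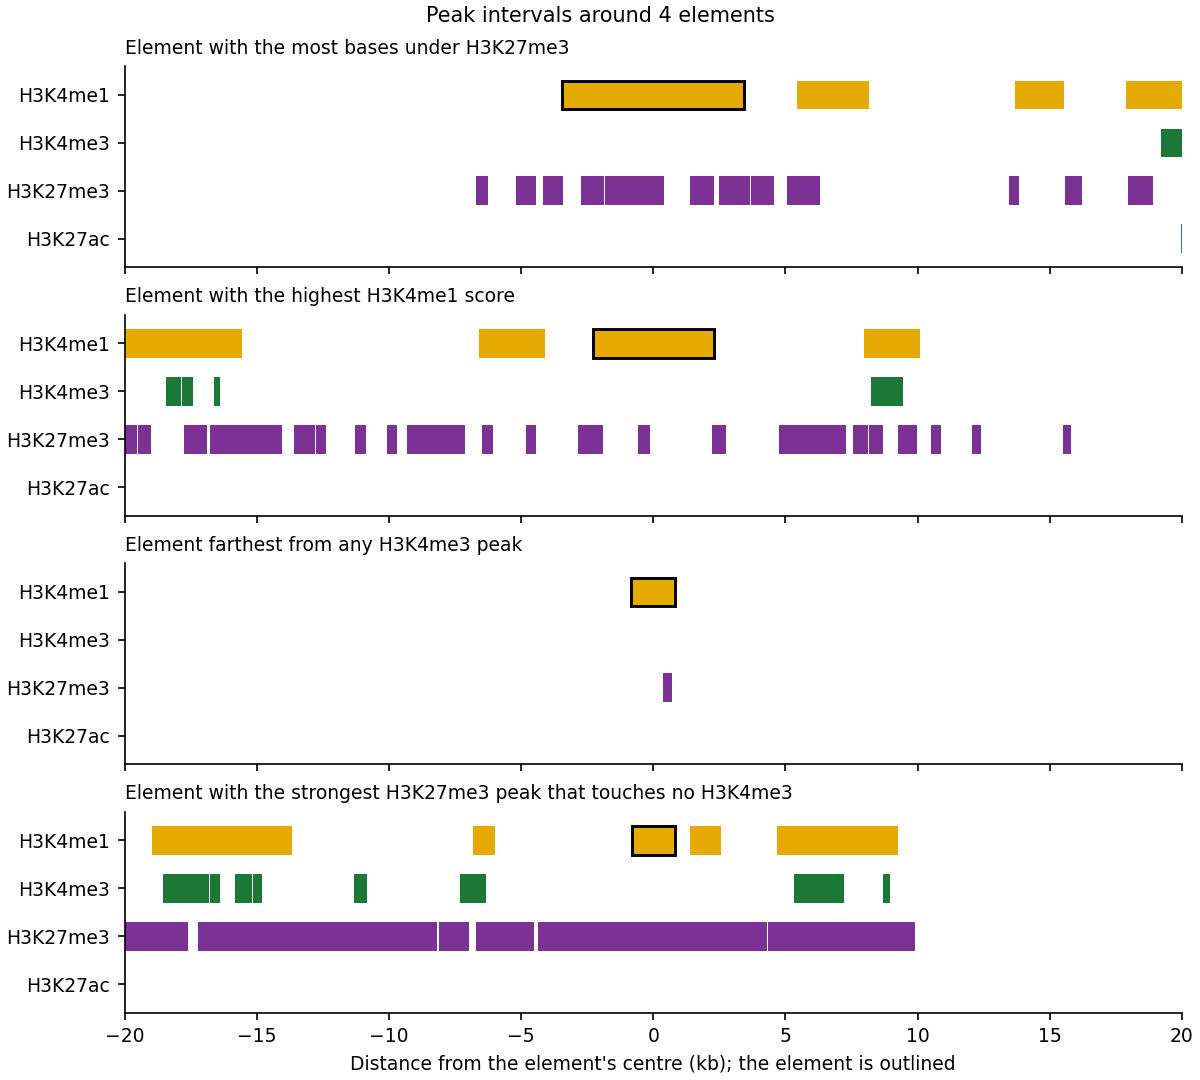
Peak intervals of the 4 marks within 20 kb of the centre of 4 elements, drawn to scale as bars by distance (kb), with the element outlined. The first element, 6878 bp wide, holds 5 H3K27me3 peaks, the second lies in a run of H3K27me3 peaks that cover 20.1% of it, the third has 1 H3K27me3 peak of 336 bp and no other peak in view, and the fourth is spanned by an H3K27me3 peak of 7035 bp.

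The elements were partly grouped. Of the 388, 150 lay within 50 kb of another, and the 388 fell in 325 separate H3K27me3 domains, 46 of which held 2 or more. The domains with the most elements, on chromosome 15 at 102732520 to 102901305 and on chromosome 6 at 52099332 to 52228455, held 5 each. All 10 were covered in full by H3K27me3, were weak in H3K4me1 (scores 51.1 to 92.7 and 50.4 to 120) and were 1.06 to 4.41 kb from H3K4me3. These 2 domains held 31 and 41 H3K4me3 peaks, 25 and 34 H3K4me1 peaks, and 0 and 8 H3K27ac peaks. After these, more than 3 domains held 3 elements each. Only the 3 of them with the longest covered length (99.2, 62.7 and 35.6 kb) are described, and they need not represent the rest. On chromosome 2 at 74484673 to 74593091 the elements were covered to at least 95.2%, whereas the lowest cover was 15.9% on chromosome 9 at 91243710 to 91318923 and 18.4% on chromosome 8 at 87287800 to 87339005. With 1 element per domain, 52.6% had a nearest H3K4me3 peak with H3K27me3, against 56.7% over all elements.

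By chromosome, the elements made up 0.435% (chromosome 12) to 0.998% (chromosome 11) of distal elements on 18 autosomes, and 1.68% (1.13 to 2.48; 24 of 1432) on chromosome 19. Chromosome 19 also had the most elements per 1000 H3K27me3 peaks, 47.2, against 20.5 to 40.9 on the others. The X chromosome, outside the rule, had 45 of 208 distal elements with H3K27me3 only.

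The thresholds of the rule passed through continuous values. The members nearest to H3K4me3 were on chromosome 4 at 46350527 to 46351455 and chromosome 5 at 140013146 to 140014143, with gaps of 1008 and 1014 bp. Elements with H3K27me3 only that were just too close, on chromosome 7 at 53648729 to 53650238 and at 31243870 to 31245811, had gaps of 986 and 980 bp. The smallest overlaps with H3K27me3 among members were 2 and 3 bp, while elements just outside had gaps of 0 and 2 bp. Requiring 50% of the shorter peak to be shared left 316 elements and gave 56.3% with H3K27me3 on the nearest H3K4me3 peak, against 56.7%.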

How the data were processed

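The 4 peak lists, from 1 library each for H3K4me1, H3K4me3, H3K27ac and H3K27me3, were analysed. The authors deposited each list as mm9 intervals, every peak with its own score. Bowtie 0.12.9, MACS 1.4 and Cufflinks are named in the submitters' processing notes without role or order. For the control, the treatment of duplicates, the calling threshold and the scale of the score, the answer is not given in the sources used here, so scores were used within a list only. Depth is unknown.

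Intervals overlapped when they shared 1 bp. Gaps ran from edge to edge, and a gap of exactly 1000 bp counted as within 1 kb. H3K27me3 peaks were joined within 5 kb. Shares carry 95% Wilson intervals, and ranges that decide whether a median moved come from order statistics. No p-values were computed, since each mark has 1 library and the lists chose the elements. Python 3.11.15, numpy 2.4.6, scipy 1.17.1, pandas 2.3.3 and matplotlib 3.10.9 were used. Overlap, distance, cover and the rule were tested on simulated data.

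The elements, measures and alternatives were chosen with earlier results of these data known. Regions named are the 5 elements with the most bases under H3K27me3, the highest H3K4me1 score, the greatest distance from H3K4me3, or the highest H3K27me3 score off H3K4me3, then 2 on each side of the 1 kb limit and the domains with most elements. Of these domains 3 were planned and 5 are described. The domains described among those tied at 3 elements are the ones with the longest covered length. Further regions were singled out after their values were seen, where stated. Positions are 1-based. Planned comparisons by gene name, cell type marker and sequence were not run, since the annotation at hand is of another build.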

Additional observations from a re-analysis of the deposited data

How the results depend on the processing

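Main values are 388 elements, 15.5% sharing the H3K27me3 peak with H3K4me3, 56.7% with H3K27me3 on the nearest H3K4me3 peak, a median gap of 3.80 kb and 53.4% in a domain with H3K4me3. In that order, these came to 167, 0%, 29.9%, 16.7 kb and 8.98% with H3K4me3 excluded within 5 kb; to 165, 36.4%, 75.8%, 2.15 kb and 75.8% with H3K27me3 peaks at or above their median score; and to 198, 6.57%, 49.0%, 6.05 kb and 42.9% with such H3K4me1 peaks. With H3K4me3 excluded only where it overlaps, the 521 elements gave 24.2%, 63.1%, 2.23 kb and 63.1%. With H3K4me3 peaks at or above their median score there were 1501 elements, with 9.39% sharing the peak, 60.4% by nearest peak (within the main interval), 15.7 kb and 39.1%. The share in a domain with H3K4me3 was 35.1% and 60.3% with joining within 1 and 12.5 kb, and 47.4% with 1 element per domain, an alternative added after the data were examined. With 50% overlap, no H3K27ac within 1 kb, X added or merged H3K4me1 peaks, the shares and gap stayed inside the main intervals, over 316 to 433 elements. With 1 element per nearest H3K4me3 peak, also added later, so did the nearest-peak share (56.1%), the gap (3.91 kb) and the domain share (52.3%); the peak-sharing share was not computed there or with 1 element per domain. Under every setting run, the share by nearest peak (29.9% to 75.8%) was above that of all distal elements (10.2% to 22.2%). In each setting the H3K27me3 list both chose the elements and set the state of the H3K4me3 peaks. All distal elements were also not matched to the class for distance from H3K4me3. This order therefore carries no test. No paired analysis was possible because each mark has 1 library. Without read counts, depth cannot be set against the lone H3K27me3 peaks under 122 elements.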
